A study of Mus musculus with 12 samples.

Results

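The genes described here are the collagen chains of the mouse heart: every gene of the deposited table whose NCBI Gene identifier belongs to a protein-coding mouse symbol made of Col, a type number, the letter a and a chain number. The rule found 43 of the 18079 genes in the table, out of 44 such genes in the RefSeq gene table; Col9a1 was not analysed here. By the kind of assembly they form, 11 were fibrillar, 6 belonged to the basement membrane type IV, 8 were FACIT chains (collagens that sit on the surface of fibrils and have interrupted triple helices) and 18 fell in the remaining types. RNA was sequenced from left ventricles of 12 C57BL/6 mice, 1 library per mouse. DMSO+Sham mice received the vehicle and a sham operation, Hispidulin+Sham mice received hispidulin and a sham operation, DMSO+AB mice received the vehicle and aortic banding, and Hispidulin+AB mice received hispidulin and aortic banding, with 3 mice in each group. Aortic banding (AB) narrows the descending aorta and loads the left ventricle with pressure, and hispidulin is a plant flavone, injected here at 20 mg/kg/day from 1 day ahead of surgery. Mice were 8 weeks old at surgery according to the labels and were 12 weeks old when hearts were taken, 4 weeks later. The labels give no genetic change for any group.

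Collagen chains wind around each other in groups of 3 to form a triple helix, which is secreted, trimmed and cross-linked in the extracellular space. In the heart, type I and type III collagens form the fibrils between muscle bundles and are made mainly by fibroblasts, type IV collagen forms the sheet under the endothelium and around each cardiomyocyte, and type VI, VIII, XV and XVIII collagens lie between these structures or around vessels. Fibrillar collagen is the material that accumulates in fibrosis of a pressure-loaded heart. Because whole tissue was sequenced, more cells of a type and more RNA per cell cannot be told apart in any value that follows.

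Levels are given in FPKM, reads scaled to the length of the transcript and to the size of the library, so that chains of different length can be compared. Over all genes, FPKM added up to 535235 to 567027 per mouse, no 2 mice had identical values, and Spearman correlations across genes within a group lay between 0.968 and 0.986. Depth is unknown, and counting error therefore cannot be stated. Ventricular cardiomyocyte genes (Myl2, Myl3, Myh6, Tnnt2, Tnni3 and Ttn) were high in all 12 mice, with a summed FPKM of 33331 to 43011. Myl7, a light chain of atrial myosin, reached 333.1 FPKM in the mouse Hispidulin+Sham 3, 67.5 in the mouse DMSO+AB 2 and 42.3 in the mouse Hispidulin+AB 3 and was at most 15.0 in the other 9 mice, so counts of chains called are also given without those 3 libraries. The animal numbers in the labels fall into 3 series (numbers starting with 52, numbers starting with 67, and DMSO+Sham 1 alone), and values within the 2 larger series are given beside the comparisons.

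Promoter sequence is shown for 3 chains whose levels are followed below, 2 fibril chains and the chain with the largest difference after banding, as the 250 bases upstream of the RefSeq start, 5′ to 3′ on the strand of the gene (RefSeq, build GRCm38.p6). Capitals mark the motifs searched on both strands, which are CCAAT and then TATAAA and then GGGCGG (printed as CCGCCC where the other strand holds it). The Col1a2 window is chr6:4505368-4505617 on the plus strand, that of Col3a1 is chr1:45311288-45311537 on the plus strand and that of Col8a1 is chr16:57754738-57754987 on the minus strand; none overlaps another gene of the gene table.
Col1a2: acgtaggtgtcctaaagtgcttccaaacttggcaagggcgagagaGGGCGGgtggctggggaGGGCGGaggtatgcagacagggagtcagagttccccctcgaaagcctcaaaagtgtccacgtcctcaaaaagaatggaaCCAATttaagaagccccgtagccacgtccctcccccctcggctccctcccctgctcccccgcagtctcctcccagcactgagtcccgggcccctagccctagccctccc
Col3a1: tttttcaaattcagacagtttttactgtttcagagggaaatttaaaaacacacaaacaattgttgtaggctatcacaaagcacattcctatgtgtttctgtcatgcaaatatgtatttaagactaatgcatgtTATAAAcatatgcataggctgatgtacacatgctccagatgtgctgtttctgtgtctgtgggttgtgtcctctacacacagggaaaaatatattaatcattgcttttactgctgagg
Col8a1: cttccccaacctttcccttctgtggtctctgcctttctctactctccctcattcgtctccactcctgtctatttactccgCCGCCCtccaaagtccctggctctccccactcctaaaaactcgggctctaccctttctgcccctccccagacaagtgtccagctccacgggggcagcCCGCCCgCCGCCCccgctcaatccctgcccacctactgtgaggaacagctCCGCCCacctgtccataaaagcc
Col1a2 held 1 CCAAT, at bases 105 to 109 upstream of the start, and 2 copies of GGGCGG, whereas Col3a1 held 1 TATAAA and Col8a1 held 4 copies of GGGCGG and neither of the other motifs. Among the 34 measured chains with a window in the table, 21 held GGGCGG (61.8%, against 45.8% of 17492 protein-coding genes), 12 held CCAAT (35.3% against 39.5%) and 5 held TATAAA (14.7% against 13.7%). Such a match is a string of letters in the window and not a measured binding site. For Col1a1 no window was used.

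Several partner chains lie next to each other in the genome. In GRCm38.p6, Col4a1 (chromosome 8, 11198423 to 11312889) and Col4a2 (11312805 to 11449287) overlap at their starts by 85 bases, and Col4a4 and Col4a3 on chromosome 1 overlap by 114 bases. Col3a1 and Col5a2 are neighbours on chromosome 1 with a gap of 24624 bases, and Col6a2 and Col6a1 lie 85161 bases apart on chromosome 10. Reads that fall in the short overlaps could be assigned to either partner, since the sources used here do not say whether strand was counted.

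Which collagen chains were present was asked first. An FPKM of 1 was reached in at least 3 of the 12 mice by 20 of the 43 chains (46.5%, against 64.5% of all 18079 genes), and these 20 are the chains that were tested. They were 6 of the 11 fibrillar chains (Col1a1, Col1a2, Col3a1, Col5a1, Col5a2 and Col5a3), 5 of the 6 type IV chains (all but Col4a6), 3 of the 8 FACIT chains (Col14a1, Col16a1 and Col20a1) and 6 of the 18 others (Col6a1, Col6a2, Col6a3, Col8a1, Col15a1 and Col18a1). In all 12 mice, 14 chains were at 1 FPKM or more, and 9 chains reached 10 FPKM in at least 3 mice. The filter reads all groups together, but Col4a3 passed it through banded mice alone (DMSO+AB 2, DMSO+AB 3 and Hispidulin+AB 2) and had a mean of 0.73 FPKM over the 12 mice; the other 19 tested chains had a mean above 1.

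The highest levels belonged to the basement membrane. Col4a1 ranked first by its mean over the 12 mice, with 52.3 to 165.4 FPKM, and Col4a2 had a mean of 74.3, ahead of Col3a1 (40.8), Col1a2 (38.5) and Col1a1 (29.9), the chains of the interstitial fibrils. Col6a2 (25.8), Col6a1 (25.4) and Col15a1 (22.1) followed, then Col8a1 (10.3). This order pools groups that differ: in both sham groups the mean of Col1a2 (21.0 and 24.7) was above that of Col3a1 (20.3 and 20.7), and Col6a1 (16.3 and 19.0) and Col6a2 (16.5 and 18.5) were above Col1a1 (15.0 and 15.2), by less than the SD between the mice in DMSO+Sham. Among FACIT chains the highest mean was 2.94 FPKM, for Col16a1. The spans between mice were unequal: Col4a1 spanned 3.17-fold from the lowest to the highest mouse and Col4a5 1.77-fold, while Col3a1 spanned 14.1-fold and Col8a1 25.0-fold.

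**Figure D1:**
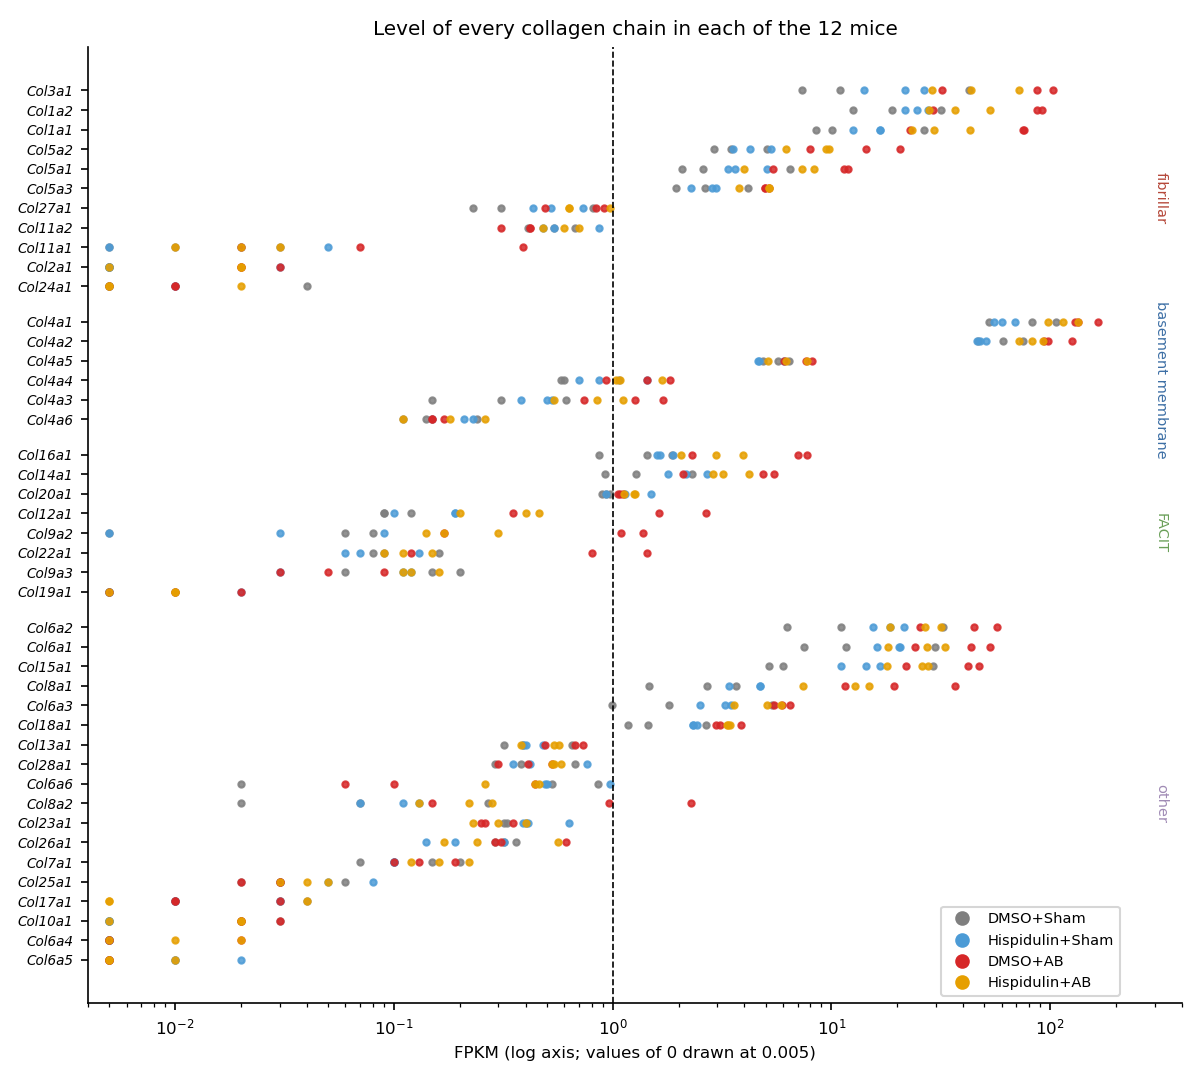
FPKM of each of the 43 collagen chains (rows, grouped by class) in the 12 mice (points, coloured by group) on a log axis, with values of 0 drawn at 0.005 and a dashed line at an FPKM of 1. In 20 rows at least 3 points lie at or right of the line, and in 19 rows none does.

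Chains under this level were of 2 kinds. In 19 chains no mouse reached an FPKM of 1, and 8 of these stayed under 0.1 in every mouse, among them Col2a1 and Col10a1 of cartilage (at most 0.03 each) and Col17a1 of epithelial hemidesmosomes (at most 0.04). The 4 remaining chains reached 1 in only 1 or 2 mice, and in each of them those were DMSO+AB 2, DMSO+AB 3 or both. Col12a1, a FACIT chain bound to type I fibrils, was at 0.35, 2.68 and 1.63 FPKM in DMSO+AB 1 to 3 and between 0.09 and 0.46 in the other 9 mice. Col22a1, a FACIT chain of tissue junctions, was at 0.12, 1.44 and 0.80 in those 3 mice and at most 0.16 elsewhere. Col9a2, a chain of cartilage fibrils, was at 0.17, 1.09 and 1.37 and at most 0.30 elsewhere, and Col8a2, the partner of Col8a1, was at 0.15, 2.28 and 0.96 and at most 0.28 elsewhere. DMSO+AB 1 thus lay within the range of the other 9 mice for these 4 chains. It was still above every sham mouse in Col12a1 (at most 0.19 there) and in Col9a2 (at most 0.09). None was among the genes tested, and in a fit without a filter on low values none had an adjusted p under 0.05 for DMSO+AB against DMSO+Sham (0.077 for Col12a1, 0.0856 for Col9a2, 0.171 for Col22a1 and 0.188 for Col8a2).

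Counted by group means, 17 chains were at an FPKM of at least 1 in DMSO+Sham and 19 in Hispidulin+Sham, against 22 in DMSO+AB and 19 in Hispidulin+AB. The 22 of DMSO+AB held all 20 tested chains, Col12a1 and Col8a2.

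Summed over the 43 chains, collagen FPKM was 193.9, 381.0 and 252.7 in the DMSO+Sham mice, 225.8, 265.3 and 284.4 in the Hispidulin+Sham mice, 435.1, 751.2 and 791.6 in the DMSO+AB mice and 349.8, 529.4 and 479.8 in the Hispidulin+AB mice. Each DMSO+AB mouse lay above each DMSO+Sham mouse, each Hispidulin+AB mouse lay above each Hispidulin+Sham mouse, and the 2 banded groups overlapped. The group means were 275.9 ± 95.7 (SD, n = 3) for DMSO+Sham and 258.5 ± 29.9 for Hispidulin+Sham, against 659.3 ± 195.2 for DMSO+AB and 453.0 ± 92.8 for Hispidulin+AB. Collagen made up 0.0358% to 0.140% of all FPKM of a mouse.

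The make-up of the sum was spread widely within the DMSO groups. Type IV chains gave 56.1% ± 17.3 (SD, n = 3) of the collagen FPKM in DMSO+Sham and 45.1% ± 2.8 in Hispidulin+Sham, and after banding 41.3% ± 10.7 in DMSO+AB and 46.2% ± 6.0 in Hispidulin+AB. Fibrillar chains gave 23.5% ± 8.3, 28.1% ± 1.7, 33.5% ± 8.8 and 30.4% ± 5.2 in the same order, and FACIT chains stayed between 1.23% and 2.60% in every mouse. The 2 ends of the range were DMSO+Sham 3, with 74.4% from type IV and 14.5% from fibrillar chains, and DMSO+AB 2, with 32.4% and 41.0%.

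**Figure D2:**
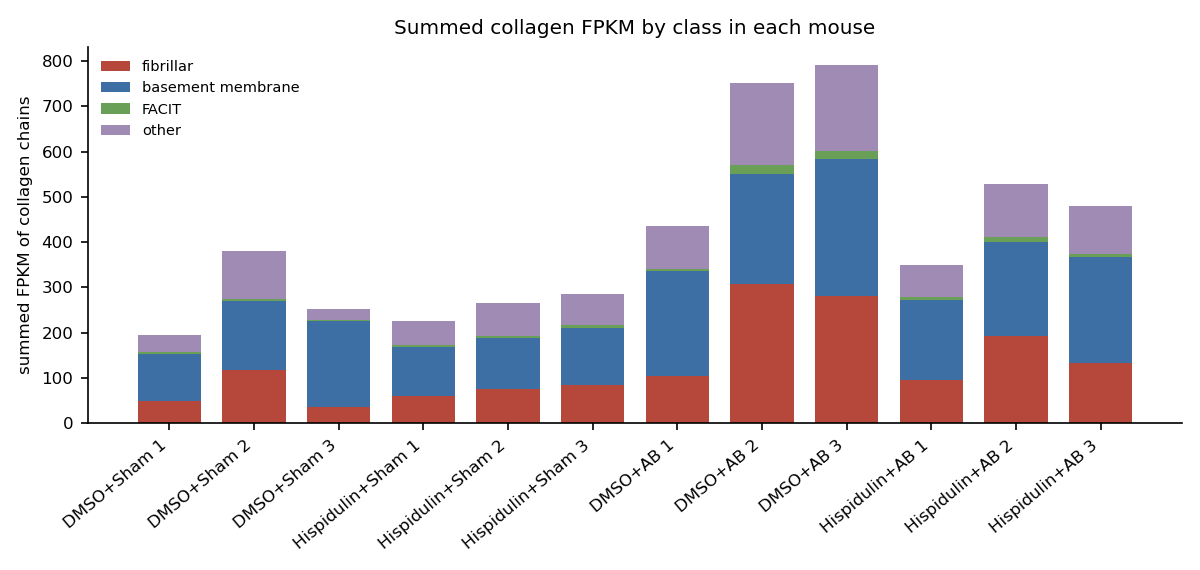
Summed FPKM of the collagen chains in each of the 12 mice (bars, linear axis from 0), stacked by class. The bars of the DMSO+AB mice reach 435.1, 751.2 and 791.6 and those of the Hispidulin+AB mice 349.8, 529.4 and 479.8, above the bars of the sham mice with the same treatment.

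The effect of banding without the drug was asked with DMSO+AB against DMSO+Sham. All 20 tested chains were higher on average after banding, with a median log2 fold change of 1.15 on the log2(FPKM + 1) scale against -0.03 over all 11664 genes tested. With limma and Benjamini-Hochberg adjustment over all genes, 9 of the 20 chains rose at an adjusted p under 0.05 and none fell; of all genes tested, 5.21% were called and 2.5% were called as higher. One of the 9, Col4a3, was tested only because banded mice reached an FPKM of 1, and with a filter on the mean over all 12 mice 8 of 19 chains rose. In 10 of the 20 chains each DMSO+AB mouse was above each DMSO+Sham mouse, against 7.18% of all genes. The stricter criteria of the study (false discovery rate up to 0.001 together with a log2 ratio of 1 or more in either direction) were applied to the limma values, not to the study's own test. They were met by 0 chains and by 0 genes, since the smallest adjusted p of any gene was 0.00182. By limma, 18 of the 20 chains had an unadjusted p under 0.05, against 20.4% of all genes. Without the 3 libraries high in Myl7, 0 of the 20 chains were called although all 20 were still higher, with a median of 1.06, and 20 of all 11664 genes were then called.

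The chains of type I collagen, the main fibril of the myocardium, were among those that rose. Col1a1 was at 10.1, 26.4 and 8.50 FPKM in DMSO+Sham, 12.6, 16.6 and 16.6 in Hispidulin+Sham, 22.9, 74.8 and 75.6 in DMSO+AB and 23.3, 42.8 and 29.3 in Hispidulin+AB. For Col1a2 the levels were 18.8, 31.6 and 12.5, then 21.8, 24.7 and 27.5, then 29.1, 91.3 and 86.5, and then 27.8, 53.2 and 36.8 FPKM in the same order of groups. In both chains DMSO+AB 1 lay below DMSO+Sham 2, so the groups overlapped, whereas DMSO+AB 2 and 3 were above every sham mouse. Banding in DMSO mice raised Col1a1 by 1.86 on the log2 scale (SE 0.46, adjusted p = 0.0407) and Col1a2 by 1.60 (SE 0.41, adjusted p = 0.0464).

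Type III and type V chains, which assemble into the same fibrils, gave larger and smaller differences. Col3a1, the chain of type III collagen, was at 10.9, 42.6 and 7.31 FPKM in DMSO+Sham, 14.1, 21.6 and 26.5 in Hispidulin+Sham, 32.0, 102.9 and 87.0 in DMSO+AB and 28.9, 72.2 and 43.4 in Hispidulin+AB. Its log2 difference of 2.04 was the largest of the fibrillar class, but with DMSO+Sham 2 above DMSO+AB 1 it had an SE of 0.58 and an adjusted p of 0.0665. Col5a2, its neighbour on chromosome 1 and a chain of the type V collagen that starts fibrils, was at 2.91, 5.06 and 3.48 in DMSO+Sham, 3.54, 4.22 and 5.28 in Hispidulin+Sham, 8.01, 20.6 and 14.4 in DMSO+AB and 6.18, 9.73 and 9.41 in Hispidulin+AB. Here all banded mice were above all sham mice, with either treatment, and the rise in DMSO mice was 1.61 (SE 0.29, adjusted p = 0.0121). Col5a1, the partner of Col5a2, was at 2.58, 6.47 and 2.08 in DMSO+Sham and at 5.43, 11.9 and 11.4 in DMSO+AB, with 3.38, 5.05 and 3.63 in Hispidulin+Sham and 4.00, 8.30 and 7.31 in Hispidulin+AB, and its log2 difference of 1.22 had an adjusted p of 0.0735. Col5a3, the third type V chain, spanned 1.95 to 4.15 FPKM in DMSO+Sham and 4.97 to 5.20 in DMSO+AB without overlap (0.67, adjusted p = 0.0589).

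In the basement membrane class, 3 of the 5 tested chains rose. Col4a1 was at 52.3, 82.8 and 106.5 FPKM in DMSO+Sham, 55.2, 60.0 and 68.8 in Hispidulin+Sham, 129.7, 134.5 and 165.4 in DMSO+AB and 97.7, 114.7 and 133.2 in Hispidulin+AB. Col4a2, which joins 2 Col4a1 chains in the common type IV helix, was at 46.8, 60.9 and 74.7, then 47.5, 46.1 and 50.9, then 93.6, 98.0 and 126.3, and then 72.2, 82.6 and 92.2 in the same order. No DMSO+AB mouse overlapped a DMSO+Sham mouse in either chain, and the rises were 0.87 (SE 0.22, adjusted p = 0.0407) and 0.80 (SE 0.17, adjusted p = 0.0206). DMSO+Sham 3, which was lowest of its group in Col1a1, Col3a1 and Col6a1, was the highest of its group in both of these chains. Of the minor type IV chains, Col4a3 was at 0.15, 0.61 and 0.31 in DMSO+Sham and 0.74, 1.27 and 1.70 in DMSO+AB (a rise of 0.71, SE 0.19, adjusted p = 0.0484), with 0.38, 0.50 and 0.53 in Hispidulin+Sham and 0.54, 1.12 and 0.85 in Hispidulin+AB. It passed the filter on low values only through banded mice and is left out when the overall mean has to reach 1. Col4a4 and Col4a5 had log2 differences of 0.45 (adjusted p = 0.212) and 0.32 (adjusted p = 0.292).

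One of the 3 tested FACIT chains rose. Col16a1, a FACIT chain that binds integrins, was at 1.44, 1.86 and 0.87 FPKM in DMSO+Sham, 1.64, 1.60 and 1.89 in Hispidulin+Sham, 2.30, 7.70 and 7.02 in DMSO+AB and 2.05, 3.94 and 2.97 in Hispidulin+AB, and its rise in DMSO mice was 1.38 (SE 0.32, adjusted p = 0.0306). The banded mice lay above the sham mice, but DMSO+AB 1 by little. Col14a1, which sits on fibril surfaces, was at 1.28, 2.31 and 0.92 in DMSO+Sham, 1.79, 2.17 and 2.69 in Hispidulin+Sham, 2.09, 5.44 and 4.85 in DMSO+AB and 2.87, 4.21 and 3.19 in Hispidulin+AB, and its difference of 1.00 (SE 0.27) had an adjusted p of 0.0554. Col20a1 stayed between 0.89 and 1.49 FPKM in all 12 mice, with a log2 difference of 0.11 (adjusted p = 0.626).

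Col8a1, a short-chain collagen that forms hexagonal networks around vessels, had the largest difference of all 20 chains. It was at 2.70, 3.66 and 1.47 FPKM in DMSO+Sham, 3.40, 4.72 and 4.69 in Hispidulin+Sham, 11.5, 36.8 and 19.3 in DMSO+AB and 7.37, 14.8 and 12.8 in Hispidulin+AB. Every banded mouse was above every sham mouse, and within the DMSO mice the rise was 2.61 on the log2(FPKM + 1) scale (SE 0.37, adjusted p = 0.00496). That is a 6.08-fold change of FPKM + 1, not of the FPKM itself. It passed the test in 22 of the 24 other settings tried. Col18a1, the vascular multiplexin from which endostatin is cut, was at 1.45, 2.66 and 1.18 in DMSO+Sham, 2.33, 2.34 and 2.42 in Hispidulin+Sham, 3.09, 2.98 and 3.86 in DMSO+AB and 3.38, 3.42 and 3.32 in Hispidulin+AB. All banded mice lay above all sham mice, and the rise in DMSO mice was 0.67 (SE 0.17, adjusted p = 0.0412).

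For the microfibril chains of type VI collagen and for Col15a1 the banded means were higher, but no adjusted p was under 0.05. Col6a1 was at 11.7, 29.7 and 7.45 FPKM in DMSO+Sham, 16.1, 20.4 and 20.5 in Hispidulin+Sham, 24.2, 43.4 and 53.1 in DMSO+AB and 18.1, 33.1 and 27.4 in Hispidulin+AB (1.40 for DMSO+AB against DMSO+Sham, adjusted p = 0.0732). For Col6a2 the values were 11.0, 32.4 and 6.25, then 15.5, 21.5 and 18.5, then 25.3, 44.8 and 57.2, and then 18.5, 31.7 and 26.9 (1.53, adjusted p = 0.0776). Col6a3 stood lower, at 1.80, 5.36 and 0.99, then 2.50, 3.49 and 3.27, then 5.45, 5.93 and 6.47, and then 3.60, 5.09 and 5.88 (1.08, adjusted p = 0.0806), without overlap between the DMSO groups. Col15a1, a multiplexin of muscle and capillary basement membranes, was at 5.18, 29.0 and 6.01, then 11.0, 16.7 and 14.4, then 21.8, 42.3 and 47.3, and then 17.9, 27.6 and 26.0 (1.73, adjusted p = 0.0661). In Col6a1, Col6a2 and Col15a1, DMSO+Sham 2 was above DMSO+AB 1 and far above the other DMSO+Sham mice.

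**Figure D3:**
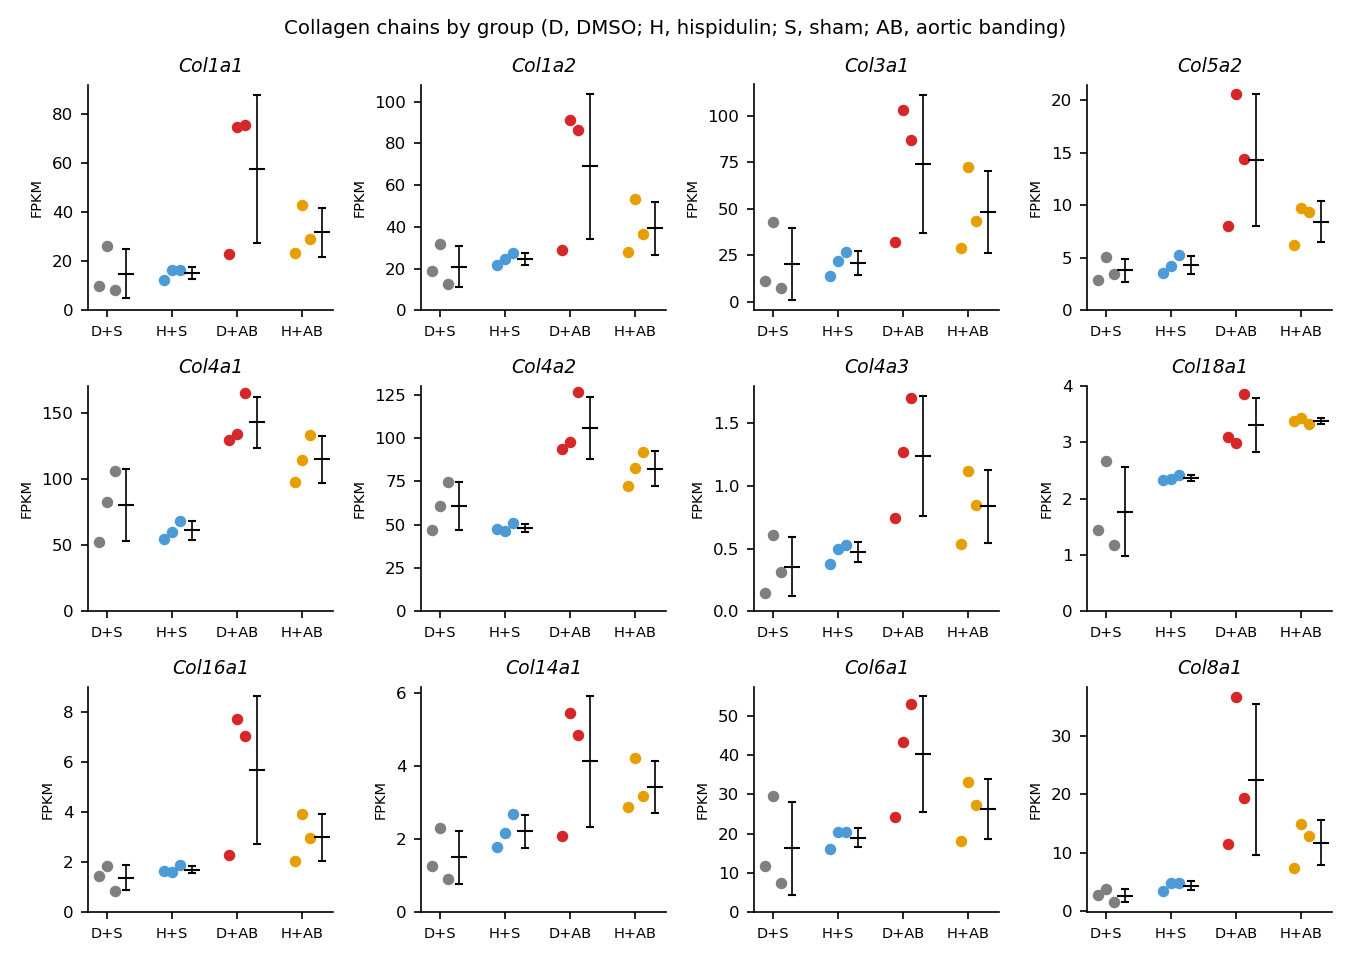
FPKM of 12 collagen chains (panels, linear axes) in the DMSO+Sham (D+S), Hispidulin+Sham (H+S), DMSO+AB (D+AB) and Hispidulin+AB (H+AB) mice, 3 points per group, with the group mean and its SD in black beside the points. In most panels 1 DMSO+Sham mouse is high and 1 DMSO+AB mouse is low, as in Col1a1, where DMSO+Sham 2 is at 26.4 and DMSO+AB 1 at 22.9.

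The same mice stood apart in most chains, so the 20 chains are not independent of each other. DMSO+Sham 2 was the highest of its group in 18 of the 20 tested chains, and DMSO+AB 1 was the lowest of its group in 18. Hispidulin+AB 1 was the lowest of its group in 18 chains and Hispidulin+AB 2 the highest in 16. The number of chains called for DMSO+AB against DMSO+Sham was 17 without DMSO+Sham 2 (1053 of all genes) and 15 without DMSO+AB 1 (954 of all genes). It was 1 without DMSO+Sham 1 (91), 4 without DMSO+Sham 3 (494), 1 without DMSO+AB 2 (97), 2 without DMSO+AB 3 (191) and 3 or 4 without any 1 of the hispidulin mice (364 to 461), with the calls over all genes in parentheses, against 608 with all mice. All 20 chains were higher in each of these fits. Within the animals numbered from 52 (1 mouse against 1) and within those numbered from 67 (2 against 1), all 20 chains were higher after banding, with median log2 differences of 0.81 and 1.54. With the number series as a term of the model, which takes DMSO+Sham 1 out of the comparison, Col8a1 alone was called, as were 142 of all genes.

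Banding under hispidulin was compared in Hispidulin+AB against Hispidulin+Sham, which shares no mice with the comparison above. All 20 tested chains were again higher after banding, with a median log2 difference of 0.54 against -0.02 over all genes, and the banded mice lay above the sham mice without overlap in 14 chains, against 9.14% of all genes. With limma 0 chains passed, as did 0% of all genes tested; 6 of the 20 chains had an unadjusted p under 0.05, against 7.26% of all genes. Those were Col4a2 (0.76, SE 0.17, adjusted p = 0.264), Col4a1 (0.89, SE 0.22, adjusted p = 0.340), Col8a1 (1.23, SE 0.37, adjusted p = 0.482), Col5a3 (0.62, SE 0.18, adjusted p = 0.482), Col5a2 (0.81, SE 0.29, adjusted p = 0.570) and Col18a1 (0.38, SE 0.17, adjusted p = 0.670). With the replicate number as a block, although no label pairs the mice, 2 chains were called, Col4a1 and Col4a2, among 17 of all genes. The same 2 chains were called with only the groups compared (49 of all genes). Library weights gave 3 chains, these and Col5a3 (209 of all genes). Without the 3 libraries high in Myl7, 0 chains were called and all 20 were higher, with a median of 0.58. The differences of Col1a1 and Col3a1 were 0.98 (95% interval -0.03 to 1.99) and 1.12 (-0.15 to 2.40), on the log2 scale. Within the animals numbered from 52 (1 against 2), 20 of 20 chains were higher, and within those numbered from 67 (2 against 1), 19 of 20.

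**Figure D4:**
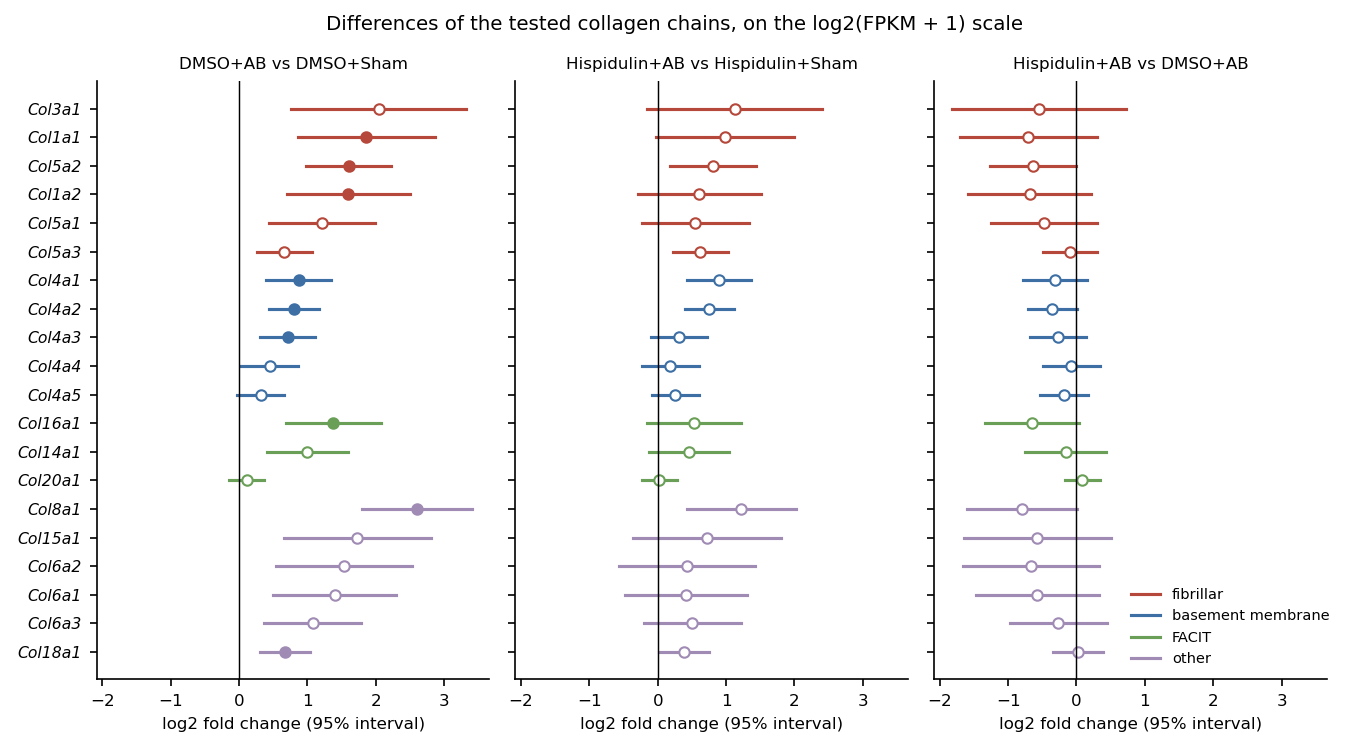
Log2 fold change with its 95% interval for the 20 tested collagen chains (rows, coloured by class) in 3 comparisons, from 1 limma model of log2(FPKM + 1) over 12 mice; filled points have an adjusted p under 0.05. Filled points occur only in DMSO+AB against DMSO+Sham (9 of 20), all 40 points of the 2 banding comparisons lie right of 0, and 18 of the 20 points of Hispidulin+AB against DMSO+AB lie left of 0 with intervals that mostly cross it.

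Whether hispidulin changed collagen chains in banded hearts was asked with Hispidulin+AB against DMSO+AB. By limma 0 of the 20 chains passed, as did 0% of all genes, and the smallest adjusted p among the chains was 0.996. An unadjusted p under 0.05 was found for 1 chain, Col5a2 (-0.63, 95% interval -1.26 to -0.01), against 3.1% of all genes. The mean was lower with hispidulin in 18 of the 20 chains, with a median log2 difference of -0.41, while 5671 of all 11664 genes were lower and the median of all genes was 0.00472. The median of the chains was -0.22 without Hispidulin+AB 1, -0.27 without DMSO+AB 3 and -0.64 without DMSO+AB 1, with 17 to 19 of 20 chains lower; without the 3 libraries high in Myl7 it was -0.39, with 18 lower and 0 called. Values were -0.80 for Col8a1 (-1.60 to 0.00096), -0.70 for Col1a1 (-1.71 to 0.30), -0.68 for Col1a2 (-1.58 to 0.22), -0.54 for Col3a1 (-1.82 to 0.73), -0.65 for Col16a1 (-1.34 to 0.04), -0.57 for Col6a1 (-1.47 to 0.33) and -0.31 for Col4a1 (-0.79 to 0.16). The intervals of these 7 chains hold both no difference and a fall by more than 1 in all but Col4a1. In Col4a2 all 3 Hispidulin+AB mice lay below all DMSO+AB mice (-0.35, -0.71 to 0.01; 3.65% of all genes were lower without overlap), and in Col20a1 all 3, at 1.13 to 1.26 FPKM, lay above the DMSO+AB mice, at 1.06 to 1.12 (0.08, -0.17 to 0.34; 4.23% of all genes were higher without overlap). For Col18a1 the difference was 0.03 (-0.34 to 0.39). DMSO+AB 2 and 3 were the 2 highest mice in Col1a1, Col3a1 and Col8a1, and DMSO+AB 1 lay below at least 1 Hispidulin+AB mouse in each of them. Within the animals numbered from 52 (1 against 1), 2 of 20 chains were higher with hispidulin, and within those numbered from 67 (2 against 2), 4 of 20.

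Hispidulin in sham hearts gave no chain with an unadjusted p under 0.05 by limma, against 2.46% of all genes, and the smallest adjusted p was 0.9999. The mean was higher with hispidulin in 16 of 20 chains, with a median log2 difference of 0.20, and the 2 groups overlapped in all 20. Over all genes, 5.6% had groups that did not overlap in this comparison. Col8a1 differed by 0.58 (95% interval -0.21 to 1.38), Col15a1 by 0.44 (-0.64 to 1.52), Col3a1 by 0.38 (-0.90 to 1.65), Col1a1 by 0.18 (-0.83 to 1.19), Col4a1 by -0.34 (-0.81 to 0.14) and Col4a2 by -0.31 (-0.67 to 0.06). The direction did not hold within the number series: with animals numbered from 52 (2 against 1), 2 of 20 chains were higher and the median was -0.41, and with those numbered from 67 (1 against 1), 18 of 20 were higher and the median was 0.64. The single DMSO+Sham mouse was DMSO+Sham 2 in the former and DMSO+Sham 3 in the latter. In the fit of all series, the median was 0.56 without DMSO+Sham 2, 0.30 without Hispidulin+Sham 1, 0.13 without DMSO+Sham 1 and 0.0085 without DMSO+Sham 3, where 11 of 20 chains were higher. Without the 3 libraries high in Myl7 it was 0.21, with 16 higher and 0 called.

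The difference between the 2 banding effects was tested as the interaction of hispidulin and AB, which uses all 4 groups. By limma 0 chains passed, with adjusted p of 0.9995, and 1 chain had an unadjusted p under 0.05, Col8a1, against 2.48% of all genes. For Col8a1 the banding effect was smaller by 1.38 under hispidulin (an interaction of -1.38, SE 0.52, 95% interval -2.51 to -0.25). The interaction was negative in 19 of 20 chains with a median of -0.62. That median was -0.40 without DMSO+Sham 3, -0.43 without Hispidulin+AB 1, -0.93 without DMSO+AB 1 and -0.98 without DMSO+Sham 2, and without Hispidulin+AB 1 or Hispidulin+Sham 3 the interaction was negative in 16 chains. Without the 3 libraries high in Myl7 it was negative in 18 chains, with a median of -0.43 and 0 called. Values were -0.92 for Col3a1 (-2.72 to 0.88) and -1.01 for Col15a1 (-2.54 to 0.51). The 2 main type IV chains lay near 0, with 0.02 for Col4a1 (-0.65 to 0.69) and -0.05 for Col4a2 (-0.56 to 0.46). Their intervals leave room for a difference of either sign, and whether type IV chains differ from the fibrillar ones was not tested.

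Ratios between chains of the same mouse cancel what moves all chains together. The 2 chains of the common type IV helix kept an even ratio in FPKM, with Col4a1/Col4a2 between 1.12 and 1.44 over the 12 mice (a 1.29-fold range), as did the type VI partners, with Col6a1/Col6a2 between 0.917 and 1.19 (1.30-fold). Among the 190 pairs of tested chains these were the 2 with the smallest spread (SD of the log2 ratio 0.112 each), against a median SD of 0.523 and a median range of 3.54-fold. The pair of rank 3 was Col16a1 with Col1a2. The levels of Col4a1 and Col6a1 themselves spanned 3.17-fold and 7.13-fold. The other partner chains were spread over the ranks: Col1a1 with Col1a2 ranked 6 of 190 (SD 0.241), Col6a2 with Col6a3 ranked 10 (SD 0.267), Col6a1 with Col6a3 ranked 12 (SD 0.275), Col5a1 with Col5a2 ranked 36 (SD 0.367), Col4a4 with Col4a5 ranked 55 (SD 0.417), Col5a1 with Col5a3 ranked 77 (SD 0.475), Col5a2 with Col5a3 ranked 98 (SD 0.530), Col4a3 with Col4a4 ranked 106 (SD 0.542) and Col4a3 with Col4a5 ranked 159 (SD 0.738).

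Some of these ratios are given by mouse. Col1a1/Col1a2 was 0.534, 0.834 and 0.681 in DMSO+Sham, 0.576, 0.672 and 0.602 in Hispidulin+Sham, 0.787, 0.820 and 0.873 in DMSO+AB and 0.837, 0.806 and 0.796 in Hispidulin+AB, so that all banded mice were above all sham mice but DMSO+Sham 2. Col4a3/Col4a4 lay between 0.259 and 0.570 in DMSO+Sham and between 0.796 and 0.934 in DMSO+AB. It was 0.350 to 0.609 in Hispidulin+Sham and 0.524 to 0.787 in Hispidulin+AB, which overlapped, and it rests on the low levels of Col4a3 given above. Col1a1/Col4a1, fibril against basement membrane, spanned 6.97-fold, from 0.0798 in DMSO+Sham 3 to 0.557 in DMSO+AB 2, with DMSO+AB 1 inside the range of the sham mice. Col8a1/Col1a1 was 0.139 to 0.268 in DMSO+Sham and 0.255 to 0.503 in DMSO+AB, with 0.271 to 0.285 in Hispidulin+Sham and 0.317 to 0.436 in Hispidulin+AB. No test was run on these ratios.

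**Figure D5:**
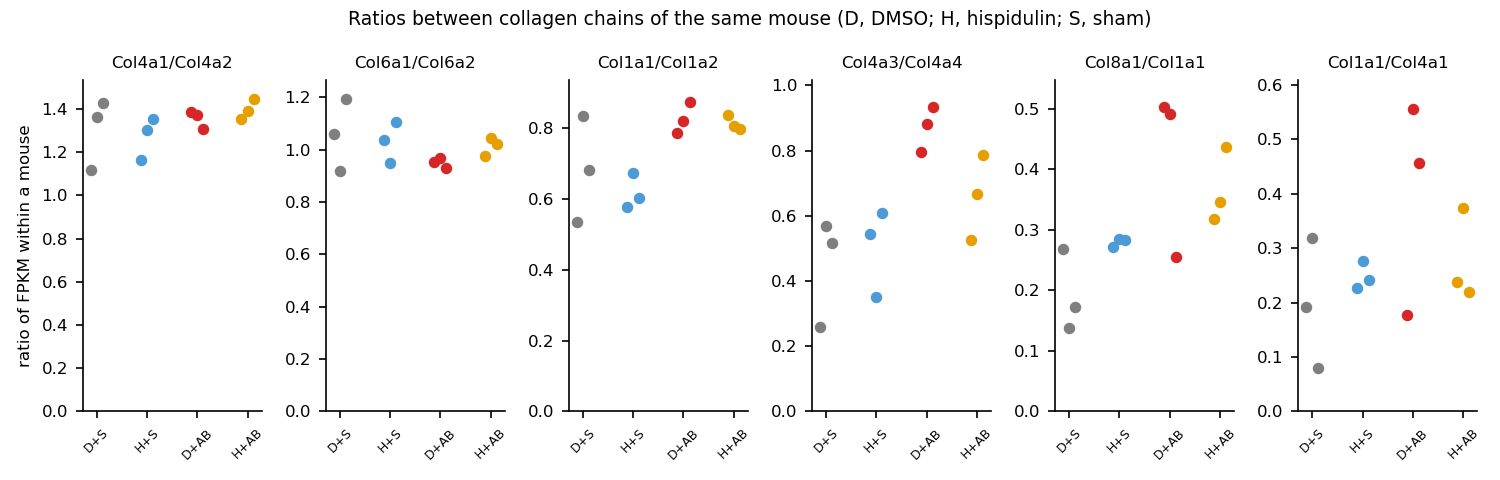
Ratio of the FPKM of 2 collagen chains within each mouse (points; linear axes from 0) for 6 pairs, by group (D, DMSO; H, hispidulin; S, sham; AB, aortic banding). Col4a1/Col4a2 stays between 1.12 and 1.44 and Col6a1/Col6a2 between 0.917 and 1.19, while Col1a1/Col4a1 spans 0.0798 to 0.557.

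The enzymes and chaperones that hydroxylate, fold, trim and cross-link collagen were read from a list of 31 genes, of which 26 were tested. For DMSO+AB against DMSO+Sham, 8 rose, 1 fell and 17 did not pass, with a median log2 fold change of 0.40; over all genes 2.5% were called as higher and 5.21% in either direction. Those that rose were the cross-linking oxidases Loxl2 (1.55, adjusted p = 0.0111) and Loxl1 (1.37, adjusted p = 0.0181), the collagen-binding Sparc (1.47, adjusted p = 0.0151), the procollagen-trimming Adamts2 (1.16, adjusted p = 0.0240) and Bmp1 (0.54, adjusted p = 0.0269), the enhancers of that trimming Pcolce (1.25, adjusted p = 0.0236) and Pcolce2 (1.03, adjusted p = 0.0206), and the chaperone Serpinh1 (0.83, adjusted p = 0.0334). P3h4, a partner of the collagen-modifying hydroxylases, fell by 0.57 (adjusted p = 0.0416). Whether these calls and those of the marker genes below hold in the other fits was not examined. For DMSO+AB against DMSO+Sham, those fits called between 11 (only the groups compared) and 1423 (library weights) of all genes. Without the 3 libraries high in Myl7 the count was 20. In the other comparisons 0 of the 26 passed by limma. Unadjusted p under 0.05 were found for 7 of them in Hispidulin+AB against Hispidulin+Sham (6 higher, 1 lower; 7.26% of all genes), 3 in Hispidulin+AB against DMSO+AB (all lower; 3.1% of all genes) and 0 in Hispidulin+Sham against DMSO+Sham (2.46% of all genes).

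Markers of the cells that could supply collagen are given beside these results. The 7 fibroblast genes (Pdgfra, Dcn, Lum, Dpt, Tcf21, Gsn and Pi16) summed to 859.5 to 935.3 FPKM in DMSO+Sham, 929.8 to 1076.3 in Hispidulin+Sham, 876.6 to 1251.3 in DMSO+AB and 910.2 to 1080.8 in Hispidulin+AB, and 1 of them, Pi16, rose in DMSO+AB against DMSO+Sham (1.49, adjusted p = 0.0265), where 2.5% of all genes were called as higher and 5.21% in either direction. The 5 genes of activated fibroblasts (Postn, Fap, Cthrc1, Comp and Fn1; 4 tested) summed to 11.7 to 20.3, 15.1 to 24.0, 34.4 to 251.8 and 28.4 to 69.9 in the same order, and Postn (3.08, adjusted p = 0.0197) and Fn1 (0.98, adjusted p = 0.0269) rose. In the endothelial, mural, epicardial, macrophage, atrial, ventricular and valve or cartilage lists, 0 genes passed by limma in any comparison, and apart from DMSO+AB against DMSO+Sham 0% of all genes passed either. In DMSO+AB against DMSO+Sham, all 7 fibroblast and all 4 tested activated fibroblast genes were higher on average. The unadjusted p was under 0.05 there for 4 of the 7 and 3 of the 4, for 1 of 5 mural genes (higher) and for 2 of 6 ventricular genes (lower), against 20.4% of all genes. In Hispidulin+AB against Hispidulin+Sham it was so for 1 activated fibroblast gene and 1 mural gene (higher) and 1 ventricular gene (lower), against 7.26% of all genes. In Hispidulin+Sham against DMSO+Sham it was so for 1 fibroblast gene and 1 mural gene (higher), against 2.46%. In Hispidulin+AB against DMSO+AB, where 18 of 20 collagen chains were lower, all 5 mural and all 3 tested epicardial genes were higher on average. The unadjusted p was under 0.05 for Myh11 (0.43) and Rgs5 (0.41) of smooth muscle and pericytes, against 3.1% of all genes. It was so too for Msln (0.94) and Upk3b (0.87) of the epicardium, and each of these genes had an adjusted p of 0.996. Msln and Upk3b passed the filter on low values only through hispidulin mice, so the filter favoured a higher hispidulin group. In DMSO+AB they were at most at 0.15 and 0.08 FPKM, and in Hispidulin+AB 3 at 0.07 and 0.0. The 4 tested activated fibroblast genes were all lower on average (median -0.59), as were 5 of the 7 fibroblast genes (median -0.13), with an unadjusted p under 0.05 for 0 of these 11. Among the 4 valve or cartilage genes, the cartilage proteoglycan Acan was at most 0.09 FPKM, Chad at most 1.84 and Cnmd at most 1.41. Prg4, also on that list, lay between 4.54 and 26.47 FPKM over the 12 mice. The part of these cells in the collagen differences was not tested.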

How the data were processed

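Left ventricular polyadenylated RNA of 12 mice was sequenced as single-end 50-base reads on a BGISEQ-500. The authors deposited FPKM for 18079 genes, rounded to 0.01. The submitters' processing notes name HISAT2 2.0.4, Bowtie2 2.2.5, RSEM 1.2.12 and DESeq2 1.4.5 without their roles; the genome build is not given in the sources used here. Counts were not analysed and the depth is unknown. Groups were taken from the sample titles, and the labels name separate animals.

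Symbols of 17947 genes (99.3%) came from the RefSeq gene table (GRCm38.p6). The 11664 genes that reached an FPKM of 1 in 3 or more of the 12 mice were tested with limma 3.58.1 in R 4.3.3: log2(FPKM + 1), 1 mean per group, all 12 mice (8 residual degrees of freedom), eBayes with trend, two-sided contrasts, Benjamini-Hochberg adjustment over all genes tested, called at an adjusted p under 0.05. Fold changes on this scale understate those of low genes. The test was also run on simulated data. Tables were read with Python 3.11.15 (pandas 2.3.3).

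The collagen chains, the gene lists and the tests were chosen with earlier results of these data known. Chains named with their values in each mouse were those called in any group comparison, the highest of each class and a list of 14. Of that list, Col12a1 is given partly as a range. Col6a6, outside these rules, is also given in each mouse. The other chains that are named have their range or the values that set them apart. Residuals of same-numbered mice correlated by 0.148 to 0.228 in Hispidulin+AB against Hispidulin+Sham and by 0.126 to 0.330 in Hispidulin+Sham against DMSO+Sham. The labels name different animals and pair none of them, so these correlations do not show a pairing. In Hispidulin+AB against Hispidulin+Sham the same-numbered mice even came from different number series. A replicate block was therefore run as an alternative only. Alternatives were another pseudocount (0.1), other filters on low values, library weights, no trend, quantile normalization or median-of-ratios scaling, only the groups compared, a covariate for the series of animal numbers, the replicate block and each mouse left out in turn. A fit without the 3 libraries highest in Myl7 was added after seeing the data. Protein sequences were not used here.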

Additional observations from a re-analysis of the deposited data

How the results depend on the processing

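The 24 alternatives kept every tested chain higher in DMSO+AB than in DMSO+Sham, with a median log2 fold change of 0.98 to 1.54, but the count of called chains did not hold. Against the 9 reported (608 of all genes), it was 3 with no filter on low values (358 of all genes), 17 with library weights (1423), 0 with only the groups compared (11), 1 with a covariate for the number series (142) and 0 without the 3 libraries highest in Myl7 (20; chosen after seeing the data). Leaving out 1 mouse at a time gave 1 to 17 called chains (91 to 1053 of all genes). The labels pair no mice by replicate number, and the mean residual correlation between same-numbered mice was -0.0887 in this comparison. With the replicate block 14 chains were called (640 of all genes). Col8a1 passed in 22 alternatives, Col5a2 in 19, Col4a2 in 18, Col4a1 in 11, Col1a1 in 10 and Col1a2 in 9 of 24, Col16a1 in 14 and Col18a1 in 7 of 23, and Col4a3 in 6 of 22.

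For Hispidulin+AB against Hispidulin+Sham, 0 chains were reported and 3 were called with library weights (209 of all genes), 2 with only the groups compared (49) and 2 with the replicate block (17). The block changed no call in the remaining comparisons, where 0 chains were called under any alternative run. In Hispidulin+AB against DMSO+AB, Col14a1 turned to 0.0788 and Col18a1 to -0.019 without the 3 libraries, and leaving out 1 mouse gave -0.48 to 0.0455 for Col14a1 and -0.0279 to 0.12 for Col18a1. In Hispidulin+Sham against DMSO+Sham, Col1a1 turned to -0.0767 and Col15a1 to -0.0708 with that covariate, Col4a1 turned to 0.0227 with library weights, and leaving out 1 mouse gave -0.11 to 0.65 for Col1a1 and -0.11 to 1.09 for Col3a1. The interaction of Col4a2 turned to 0.14 with the covariate and was -0.21 to 0.12 when 1 mouse was left out. The causes were not tested. No FACIT chain passed a filter at an FPKM of 5, so that class has no median there.

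With 3 mice a group and unknown depth, differences of low chains such as Col12a1 or Col8a2 could not be resolved, and the calls rest on a spread shared by all 4 groups.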

Other observations

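Some low chains outside the comparisons are given here by their values. Col6a6, a type VI chain, was at 0.53, 0.86 and 0.02 FPKM in DMSO+Sham, 0.49, 0.97 and 0.50 in Hispidulin+Sham, 0.44, 0.06 and 0.10 in DMSO+AB and 0.44, 0.26 and 0.46 in Hispidulin+AB. DMSO+AB 2 and 3, among the highest mice in Col6a1, were among the lowest in Col6a6, and its log2 difference between DMSO+AB and DMSO+Sham was -0.26 (limma without a filter on low values, adjusted p = 0.585). Col11a1, a minor fibrillar chain, was at 0.39 FPKM in DMSO+AB 2 and at most 0.07 in the other 11 mice. Col27a1, a fibrillar chain of cartilage, lay between 0.23 and 0.97 and Col11a2 between 0.31 and 0.87, and no mouse reached an FPKM of 1 in either. Col13a1 and Col23a1, which span the cell membrane, lay between 0.32 and 0.73 and between 0.23 and 0.63. Col4a6, the neighbour of Col4a5 on chromosome X, stayed between 0.11 and 0.26 while Col4a5 lay between 4.61 and 8.17.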
